A study of Mus musculus with 6 samples.

Results

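The genes described here are the keratin family of the mouse ovary, 51 of the 44788 genes in the count table, chosen by their symbols (Krt followed by a number and at most 1 letter). The 3 ovary samples of Bnc1+/+ mice (replicates 1, 4 and 7) were compared with 3 of Bnc1tr/tr mice (replicates 1, 2 and 3), all on the C57BL/6 J strain and 8 weeks of age. Bnc1tr/tr mice are homozygous for a frameshift deletion in Bnc1 that gives a premature stop codon, and the mutation is in the germ line, so every cell of the ovary and of the rest of the body carries it. The study used this line as a model of primary ovarian insufficiency, and it sequenced whole ovaries to ask which transcripts differ between the genotypes. The gene counts of an ovary summed to 25247770 at the least and 34406296 at the most. The family was selected on this same comparison, since large rises of Krt35 and Krt71 were known when it was picked, so those 2 genes are given as a description with no test and counts of keratins that passed the test are read as support for nothing.

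Keratins are the intermediate filament proteins of epithelia. A filament forms only when an acidic (type I) keratin pairs with a basic (type II) keratin, and each kind of epithelium has its own pairs. Krt8 and Krt18, with Krt7 and Krt19, are the simple epithelial keratins, which in the adult ovary are known from the surface epithelium. Krt5 and Krt14 pair in the basal layer of skin, Krt1 and Krt10 in its upper layers, and the inner root sheath and the shaft of the hair follicle have keratins of their own.

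The simple epithelial keratins Krt7, Krt8, Krt18 and Krt19 were the most abundant in both genotypes, and neither they nor the low Krt20 passed the test, whereas several keratins known from hair, skin and mouth were low in Bnc1+/+ ovaries and higher in every Bnc1tr/tr ovary. Levels are given as CPM, the reads of a gene scaled to the depth of its library and by TMM, a factor that evens out library composition. They summed to 196 ± 10.3 in Bnc1+/+ and 232 ± 16.6 in Bnc1tr/tr ovaries over the 5 simple keratins (SD, n = 3), a ratio of 1.18. The 9 keratins of the inner root sheath and companion layer went from 1.38 ± 0.5 to 9.75 ± 2.71 CPM, a ratio of 7.05, and without Krt71 from 1.25 ± 0.527 to 5.27 ± 1.14 CPM, a ratio of 4.23. Most of the sum without Krt71 was Krt73, which went from 0.86 ± 0.212 to 4.20 ± 0.66 CPM. The 14 hair shaft keratins went from 2.82 ± 0.514 to 8.46 ± 2.12 CPM, a ratio of 3 (2.29 without Krt35). Most of the hair shaft sum was Krt84, which went from 2.47 ± 0.401 to 4.81 ± 1.90 CPM and did not pass in edgeR. The 20 keratins of stratified epithelia went from 8.68 ± 0.133 to 21.2 ± 3.13 CPM, a ratio of 2.44. Much of that class sum was Krt79, which alone went from 3.93 ± 0.129 to 13.7 ± 2.60 CPM. The remaining 3 keratins (Krt23, Krt80 and Krt222) summed to 3.78 ± 0.655 and 6.91 ± 0.87 CPM. In whole ovaries, more cells that express a gene and more RNA per cell cannot be told apart.

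Of the 51 keratins, 18 had enough reads to be tested and 33 did not. Among the 33, Krt2, Krt9, Krt26, Krt31 and Krt39 had no read in any ovary, and the other 28 had at most 19 reads in any ovary. With edgeR's quasi-likelihood test and Benjamini-Hochberg adjustment over 19423 genes, 7 keratins were higher in Bnc1tr/tr ovaries at an adjusted p under 0.05 and 0 were lower. The 7 are Krt35, Krt71, Krt73, Krt76, Krt79, Krt80 and Krt83. Of all genes tested, 2.88% were higher and 4.19% were lower by the same rule. At an unadjusted p under 0.05, 11 keratins were higher and 0 lower, beside 11.9% and 12.3% of all genes. DESeq2 called 8 higher and 0 lower, beside 5.56% and 6.9% of all genes, and limma-voom 7 and 0, beside 2.67% and 4.04%. The log2 fold change was positive for 16 of the 18, and its median was 0.91, beside 0.018 over all genes tested. In 11 of the 18, every Bnc1tr/tr ovary was above every Bnc1+/+ ovary, beside 15% of all genes tested. These counts are bound to the way genes enter the test, because Krt1, Krt15, Krt35, Krt71, Krt76 and Krt83 reached the minimum level only through the Bnc1tr/tr ovaries. Of the 11 keratins above the minimum in all 6 ovaries, 3 were called higher, Krt73, Krt79 and Krt80.

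**Figure D1:**
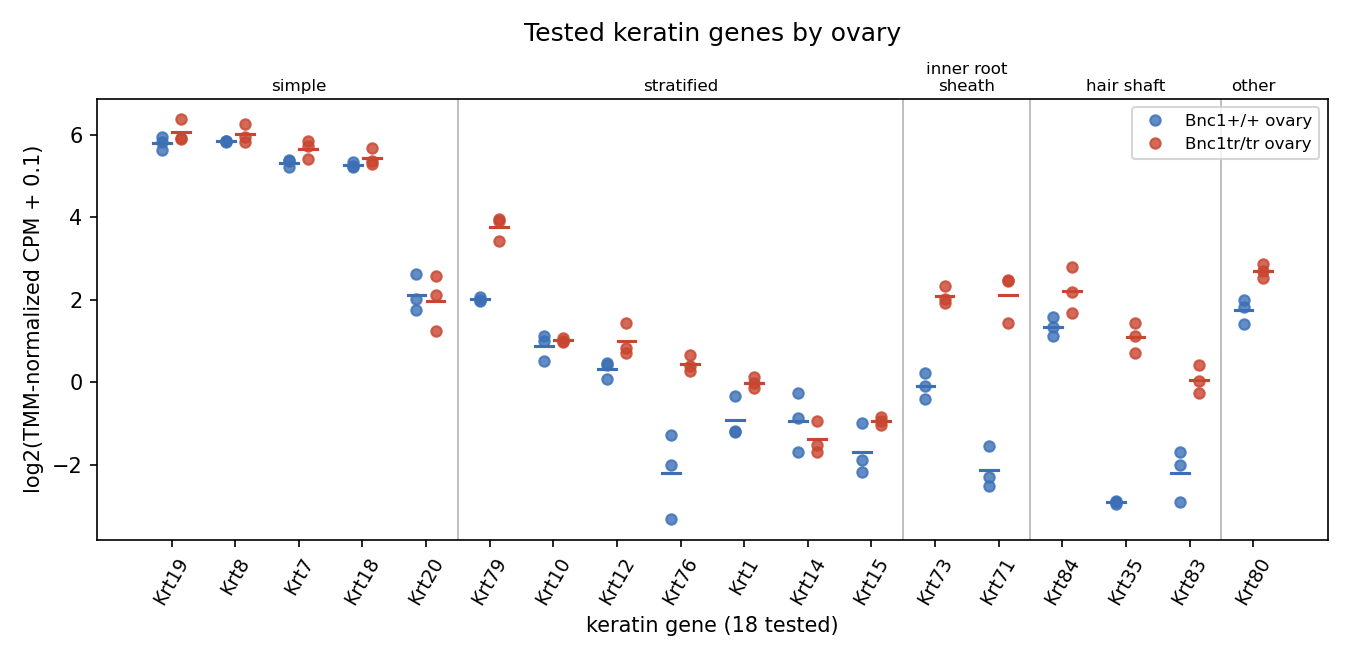
Each point is 1 ovary, and the y axis gives log2 of the TMM-normalized CPM plus 0.1 for the 18 tested keratins, grouped by class, with bars at the mean of the log2 values of 3 ovaries. The simple keratins Krt19, Krt8, Krt7 and Krt18 sit at the top, with means close together in both genotypes. In 11 of the 18, all Bnc1tr/tr points are above the Bnc1+/+ points, beside 15% of all genes tested. These are Krt79, Krt76, Krt73, Krt71, Krt35, Krt83, Krt80, Krt84, Krt1, Krt12 and, by a small gap, Krt7.

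The simple epithelial keratins are taken first. Krt8, the type II partner of simple epithelia, had 57.4, 56.5 and 57.7 CPM in Bnc1+/+ and 56.9, 61.2 and 76.9 CPM in Bnc1tr/tr ovaries. Krt18, its type I partner, had 40.8, 38.0 and 37.0 CPM in Bnc1+/+ and 39.1, 41.1 and 51.1 CPM in Bnc1tr/tr ovaries. For both genes the groups overlapped, and the highest value of each came from Bnc1tr/tr replicate 3. The log2 fold change was 0.18 for Krt8 (95% interval -0.09 to 0.46, edgeR adjusted p = 0.382) and 0.18 for Krt18 (95% interval -0.09 to 0.45, edgeR adjusted p = 0.384). Reads of Krt8 are not all its own by sequence, since 29.7% of its 50-base stretches also occur elsewhere, most often in the pseudogene Krt8-ps, which stood at 23.4 ± 4.14 CPM in Bnc1+/+ and 27.9 ± 4 CPM in Bnc1tr/tr ovaries (SD, n = 3).

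Krt19, a type I keratin that lacks the usual tail and is made in many simple epithelia, had 61.2, 49.5 and 56.6 CPM in Bnc1+/+ and 59.8, 83.7 and 60.9 CPM in Bnc1tr/tr ovaries. The groups overlapped, and the log2 fold change was 0.29 (95% interval -0.06 to 0.63, edgeR adjusted p = 0.283). Krt7, a type II keratin of ducts and of the oviduct, had 41.0, 37.2 and 41.6 CPM in Bnc1+/+ and 53.1, 57.4 and 42.9 CPM in Bnc1tr/tr ovaries. Every Bnc1tr/tr ovary was above every Bnc1+/+ ovary for Krt7, but replicate 3 only narrowly, and the log2 fold change of 0.36 ± 0.12 (SE) did not pass the test (95% interval 0.08 to 0.63, edgeR adjusted p = 0.12). Krt20, known from the intestinal lining and from urothelium, was low and variable, with 3.94, 3.29 and 6.04 CPM in Bnc1+/+ and 5.83, 4.23 and 2.26 CPM in Bnc1tr/tr ovaries. The log2 fold change of Krt20 was -0.11 (95% interval -0.97 to 0.76, edgeR adjusted p = 0.892), and the sign turned without Bnc1+/+ replicate 7 (0.17) or Bnc1tr/tr replicate 3 (0.19). At an unadjusted p under 0.05, 1 of the 5 simple keratins was higher (Krt7) and 0 were lower, and DESeq2 and limma-voom also called 0 of them. The upper ends of these intervals leave room for modest rises of the simple keratins.

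Among the inner root sheath keratins, Krt73 and Krt71 stood out. Krt73, a type II keratin of the inner root sheath cuticle, had 1.08, 0.846 and 0.655 CPM in Bnc1+/+ and 4.94, 3.70 and 3.95 CPM in Bnc1tr/tr ovaries. The groups were far apart and did not overlap. The mean went from 0.86 ± 0.212 to 4.20 ± 0.66 CPM (SD, n = 3), a ratio of 4.88, with a log2 fold change of 2.28 ± 0.27 (SE, edgeR adjusted p = 0.00429). Krt71, the type II keratin of the inner root sheath whose mutations curl the coat of mice, had 2, 8 and 3 reads in Bnc1+/+ and 154, 68 and 152 reads in Bnc1tr/tr ovaries. These reads are 0.0743, 0.242 and 0.103 CPM against 5.48, 2.62 and 5.36 CPM, and the ratio of the means was 32.1. Krt71 went from barely detected to a level like that of Krt73.

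Krt72, a further type II keratin of this sheath, was too low to be tested, with 4, 3 and 2 reads in Bnc1+/+ and 19, 7 and 15 reads in Bnc1tr/tr ovaries. Every Bnc1tr/tr ovary was again the higher. The type I partners of these keratins were close to nothing. Krt25 had 0, 2 and 0 reads in Bnc1+/+ and 9, 2 and 6 reads in Bnc1tr/tr ovaries. Krt26 had no read, Krt27 had 1 read in all 6 ovaries together, and Krt28 had 6, 1 and 1 reads against 6, 1 and 5. Krt74, a type II member that GENCODE M21 lists as a pseudogene and that is kept in the class, had 1 read in each genotype. Krt75, of the companion layer, had 9, 2 and 1 reads against 6, 0 and 13.

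The hair shaft keratins were led by Krt35, a type I keratin of the hair matrix and cortex. Krt35 had 1 read in each Bnc1+/+ ovary and 73, 54 and 44 reads in the Bnc1tr/tr ovaries, which is 0.034 ± 0.00351 against 2.08 ± 0.523 CPM (SD, n = 3). The ratio of the pooled reads, scaled to depth, was 61.5, and with only 3 reads on the Bnc1+/+ side its 95% counting interval ran from 20.7 to 301, which covers counting error only. Krt83, listed as a type II hair shaft keratin, had 4, 7 and 1 reads in Bnc1+/+ and 26, 19 and 35 reads in Bnc1tr/tr ovaries, with no overlap. Its mean went from 0.132 ± 0.0897 to 0.963 ± 0.253 CPM (SD, n = 3), with a log2 fold change of 2.81 ± 0.51 (SE, edgeR adjusted p = 0.0194), and it entered the test only through the Bnc1tr/tr ovaries, where it is high. The symbol Krt83 is also an older name of Krt87 in RefSeq, so the row may belong to either gene, and no position or length is given for it.

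Krt84, a type II keratin of nail, tongue papillae and hair cuticle, was the hair shaft keratin with the most reads in both genotypes. It had 2.90, 2.42 and 2.10 CPM in Bnc1+/+ and 6.86, 3.12 and 4.44 CPM in Bnc1tr/tr ovaries, without overlap. Its log2 fold change of 0.96 ± 0.31 (SE) did not pass in edgeR (adjusted p = 0.107), while DESeq2 gave an adjusted p of 0.038, the lowest of 13 alternatives, which reached up to 0.282. Other type I genes of the shaft were too low to be tested. Krt33a had 1, 1 and 2 reads in Bnc1+/+ and 6, 16 and 4 reads in Bnc1tr/tr ovaries, a ratio of 7.01 (95% counting interval 2.43 to 27.7). Krt36 had 2, 0 and 1 reads against 7, 5 and 5, a ratio of 6.12 (95% counting interval 1.77 to 32.6). The other hair shaft keratins had at most 4 reads in any ovary.

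In the stratified class, Krt79 was the most abundant. Krt79, a type II keratin of the upper hair follicle and the sebaceous duct, had 3.83, 4.08 and 3.90 CPM in Bnc1+/+ and 15, 10.7 and 15.5 CPM in Bnc1tr/tr ovaries. The mean went from 3.93 ± 0.129 to 13.7 ± 2.60 CPM (SD, n = 3), a ratio of 3.49, with a log2 fold change of 1.80 ± 0.17 (SE, edgeR adjusted p = 0.00239). No 50-base stretch of Krt79 occurs in another gene. Krt76, a type II keratin of the hard palate and other oral epithelium, had 0, 5 and 9 reads in Bnc1+/+ and 34, 29 and 42 reads in Bnc1tr/tr ovaries. The groups did not overlap, and the log2 fold change was 2.99 ± 0.65 (SE, edgeR adjusted p = 0.0374). Krt76 too entered the test only through the Bnc1tr/tr ovaries.

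The classical pairs of the epidermis did not pass the test. Krt10 had 1.34, 1.90 and 2.10 CPM in Bnc1+/+ and 1.92, 2 and 1.87 CPM in Bnc1tr/tr ovaries (log2 fold change 0.11, 95% interval -0.46 to 0.69, edgeR adjusted p = 0.819), and the sign turned without Bnc1+/+ replicate 1 (-0.06). Its partner Krt1 had a log2 fold change of 0.95 (95% interval 0.11 to 1.78, edgeR adjusted p = 0.159) at 0.458 and 0.897 CPM, and the groups did not overlap. In the basal pair, Krt14 stood at 0.468 ± 0.267 CPM in Bnc1+/+ and 0.295 ± 0.113 CPM in Bnc1tr/tr ovaries (SD, n = 3), with a log2 fold change of -0.65 (edgeR adjusted p = 0.501), and Krt5 had 0 or 1 read in each ovary. Krt17, a type I keratin of skin appendages, was the only keratin with every Bnc1tr/tr ovary below every Bnc1+/+ ovary, with 6, 6 and 2 reads against 0, 1 and 1. The type I keratins Krt15 (log2 fold change 0.88, edgeR adjusted p = 0.307) and Krt12 (0.75, edgeR adjusted p = 0.165) did not pass, and 42.0% of the 50-base stretches of Krt12 also lie in another gene, most often in A830036E02Rik. The other 11 stratified keratins had at most 7 reads in any ovary.

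Of the keratins outside these classes, Krt80, a type II keratin found in many epithelia, had 3.46, 3.90 and 2.59 CPM in Bnc1+/+ and 5.69, 7.20 and 6.42 CPM in Bnc1tr/tr ovaries, without overlap. The log2 fold change of Krt80 was 0.95 ± 0.21 (SE, edgeR adjusted p = 0.037). Krt23, a type I keratin of glandular epithelia, was not tested and had 0.297, 0.181 and 0.276 CPM in Bnc1+/+ and 0.391, 0.577 and 0.106 CPM in Bnc1tr/tr ovaries, which overlapped. The calls of Krt76, Krt80 and Krt83 were near the threshold. Krt80 was no longer called without Bnc1+/+ replicate 1, 4 or 7 or Bnc1tr/tr replicate 2 or 3 (edgeR adjusted p from 0.0749 to 0.112), Krt83 without Bnc1+/+ replicate 1, 4 or 7 or Bnc1tr/tr replicate 3 (0.0547 to 0.068), and Krt76 without Bnc1+/+ replicate 4 or 7 or any one of the Bnc1tr/tr ovaries (0.0643 to 0.181). Over all alternatives the adjusted p ranged from 0.00151 to 0.194 for Krt80, from 0.00148 to 0.131 for Krt83 and from 0.00062 to 0.181 for Krt76.

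**Figure D2:**
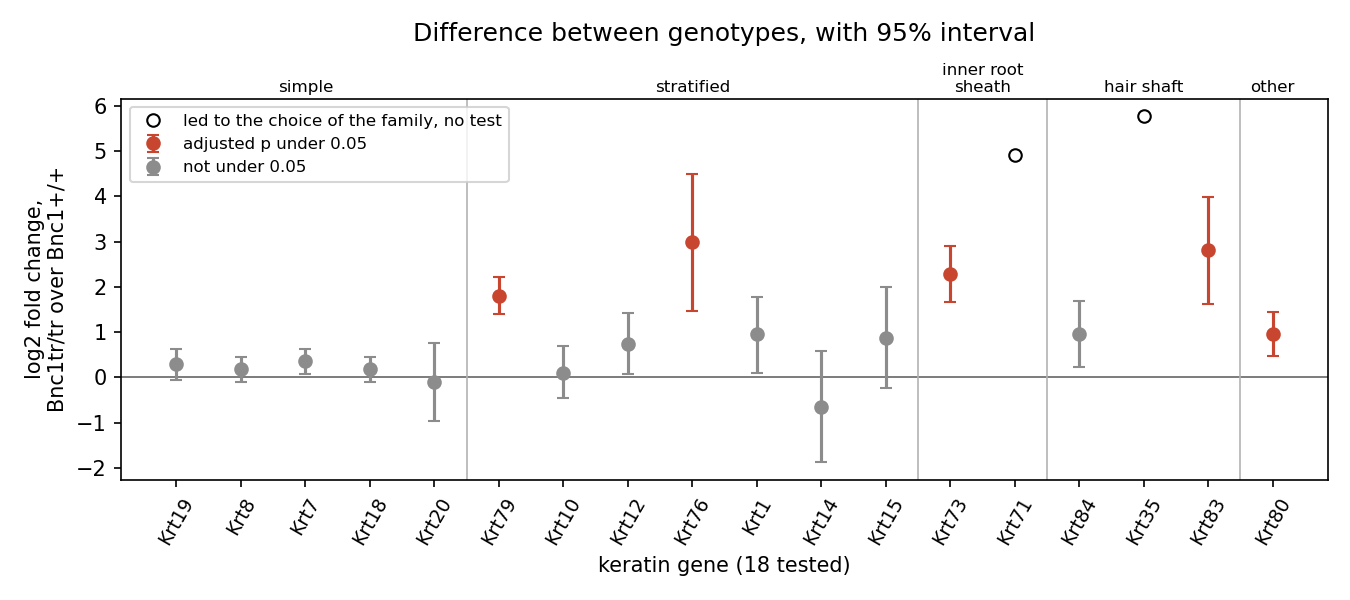
The y axis gives the log2 fold change of each tested keratin, Bnc1tr/tr over Bnc1+/+, and bars are 95% intervals from the edgeR fit over 3 ovaries per genotype. Krt35 and Krt71 are open points without bars because they led to the choice of the family, and the point of Krt35 rests on 3 Bnc1+/+ reads. The 5 simple keratins lie between -0.11 and 0.36, with the widest interval of them for Krt20, and Krt79 and Krt73 lie at 1.80 and 2.28.

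Per kilobase of exon, Krt19, Krt8, Krt18 and Krt7 stayed above all other keratins with a known length in both genotypes. In Bnc1tr/tr ovaries Krt19, Krt8 and Krt18 had 36.7, 33.2 and 30.5 CPM per kilobase and Krt7 had 7.25 CPM per kilobase. Krt79 followed with 2.88, Krt20 with 2.13, Krt71 with 2.05, Krt73 with 1.94 and Krt84 with 1.82 CPM per kilobase. In Bnc1+/+ ovaries Krt71 stood at 0.064 and Krt73 at 0.397 CPM per kilobase, below Krt84 at 0.936 and Krt79 at 0.827 CPM per kilobase. Krt71 and Krt73 were thus higher in the order of levels in Bnc1tr/tr ovaries, and below Krt7.

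The 2 keratin types were unequal in this comparison. Outside the simple class, the 21 type II keratins summed to 11.9 ± 1.49 CPM in Bnc1+/+ and 37.8 ± 6.20 CPM in Bnc1tr/tr ovaries (SD, n = 3), a ratio of 3.17 (2.83 without Krt71). The 25 type I keratins summed to 4.74 ± 0.5 and 8.51 ± 1.3 CPM, a ratio of 1.79 (1.37 without Krt35). The type II sum divided by the type I sum was 2.51, 3.10 and 2.04 in Bnc1+/+ against 4.25, 3.73 and 5.52 in Bnc1tr/tr ovaries, so it was higher in every Bnc1tr/tr ovary. Outside the simple class 8 type II and 5 type I keratins were tested. Of these, 6 and 1 (Krt35) were called higher in edgeR, beside 2.88% of all genes tested. Among the called genes, Krt35, Krt71, Krt76 and Krt83 entered the test only through the Bnc1tr/tr ovaries, and Krt35 and Krt71 led to the choice of the family. Among the simple keratins both types had similar sums, with 98.8 and 116 CPM for type I and 97.1 and 116 CPM for type II.

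**Figure D3:**
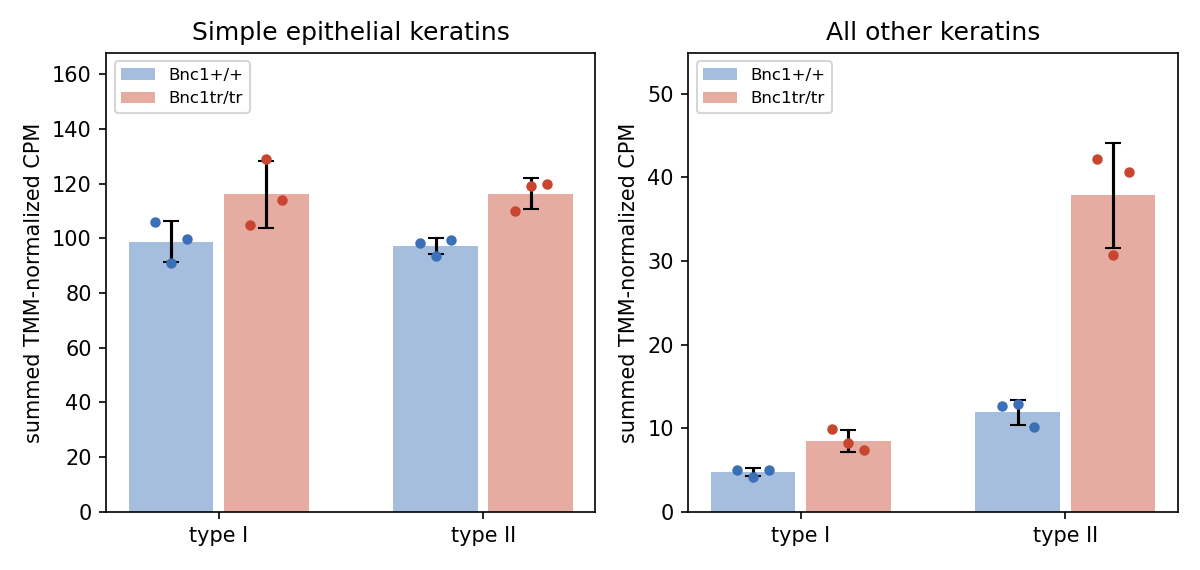
Bars give the mean summed TMM-normalized CPM of type I and type II keratins with the SD of 3 ovaries, and points are single ovaries, for the simple keratins on the left and all other keratins on the right. The right panel shows the type II sum of the Bnc1tr/tr ovaries at 37.8 CPM, with all 3 points above the Bnc1+/+ points.

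The types are also apart in the genome. In GRCm38 with the GENCODE M21 annotation the type II genes lie in 1 cluster at chr15:101347444-102004482, with the type I gene Krt18 just beyond its end, and the other 27 type I genes lie at chr11:99232761-100269871. Within the chromosome 15 cluster, Krt71 (chr15:101733949-101743109), Krt72 (chr15:101776172-101786460) and Krt73 (chr15:101793308-101802346) are close neighbours, and Krt76 (chr15:101884351-101892920) and Krt79 (chr15:101929332-101940324) follow toward Krt8 (chr15:101996698-102004482). Genes with almost no reads, such as Krt74 and Krt2, lie between them, so the higher keratins do not form an unbroken block. Krt35 (chr11:100092193-100096241) lies in the type I cluster among hair shaft keratins that had few reads. The tested protein-coding genes that flank the clusters, 5 on each side at most, numbered 19. Of these, 1 was higher and 2 were lower at an edgeR adjusted p under 0.05, beside 2.88% and 4.19% of all genes tested. The width of this flank was chosen after values were seen.

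**Figure D4:**
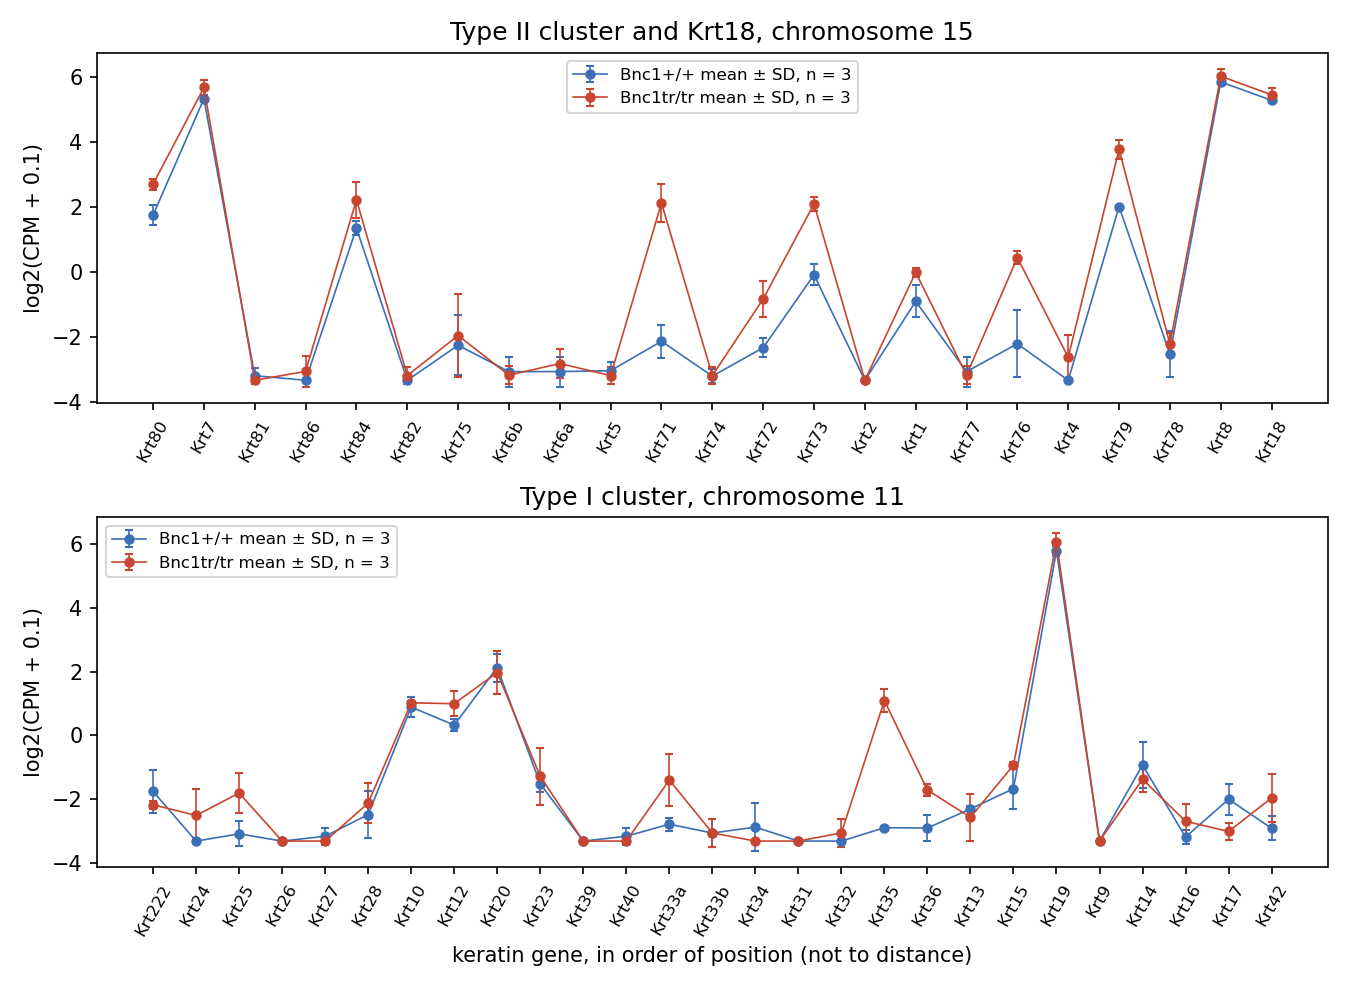
Points are the mean of log2(CPM + 0.1) of 3 ovaries with the SD, and keratin genes are drawn in order of position on chromosome 15 (top) and chromosome 11 (bottom), without Krt83. Every Bnc1tr/tr ovary was above every Bnc1+/+ ovary at Krt80, Krt7, Krt84, Krt71, Krt72, Krt73, Krt1, Krt76 and Krt79 in the top panel. In the bottom panel this held at Krt25, Krt12, Krt33a, Krt35 and Krt36. The amounts differed widely, and Krt72, Krt25, Krt33a and Krt36 had too few reads to be tested. Of all genes tested, 15% had every Bnc1tr/tr ovary above. At Krt17 in the bottom panel, also not tested, every Bnc1tr/tr ovary was below every Bnc1+/+ ovary. The means of both genotypes lie close together at Krt7, Krt8, Krt18 and Krt19. At Krt25, Bnc1+/+ replicate 4 and Bnc1tr/tr replicate 2 both had 2 reads, and only the scaling puts them apart.

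Of the keratins called higher, the promoters of the 4 that were found in the RefSeq promoter table are shown, because these genes lie in the same cluster and were higher together, with that of Krt8, which did not pass, for comparison. Each window runs from 250 bases before to 50 bases after the start of the gene in RefSeq (GRCm38.p6), 300 bases in all, 5′ to 3′ on the minus strand, on which all 5 genes lie. The windows are chr15:101743048-101743347 (Krt71), chr15:101802311-101802610 (Krt73), chr15:101892871-101893170 (Krt76), chr15:101940275-101940574 (Krt79) and chr15:102004293-102004592 (Krt8). Capitals mark matches on either strand to the TATA box letters TATAAA, the GATA letters AGATAA and the LEF/TCF letters CTTTGA.
Krt71: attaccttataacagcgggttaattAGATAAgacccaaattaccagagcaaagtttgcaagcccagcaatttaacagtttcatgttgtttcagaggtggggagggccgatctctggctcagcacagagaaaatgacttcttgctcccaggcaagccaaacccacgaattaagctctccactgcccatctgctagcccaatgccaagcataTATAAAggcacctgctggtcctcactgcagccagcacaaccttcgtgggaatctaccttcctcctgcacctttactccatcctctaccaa
Krt73: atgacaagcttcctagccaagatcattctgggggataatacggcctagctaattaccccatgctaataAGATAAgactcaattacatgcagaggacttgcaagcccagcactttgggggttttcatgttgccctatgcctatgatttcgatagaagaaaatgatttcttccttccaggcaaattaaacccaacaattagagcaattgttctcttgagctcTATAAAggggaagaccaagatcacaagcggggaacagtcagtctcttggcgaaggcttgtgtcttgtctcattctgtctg
Krt76: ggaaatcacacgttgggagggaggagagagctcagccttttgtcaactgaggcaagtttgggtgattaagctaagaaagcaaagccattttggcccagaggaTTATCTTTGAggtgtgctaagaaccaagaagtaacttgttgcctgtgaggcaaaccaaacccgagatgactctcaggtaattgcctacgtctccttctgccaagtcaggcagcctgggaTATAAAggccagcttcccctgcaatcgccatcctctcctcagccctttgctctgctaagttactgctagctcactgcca
Krt79: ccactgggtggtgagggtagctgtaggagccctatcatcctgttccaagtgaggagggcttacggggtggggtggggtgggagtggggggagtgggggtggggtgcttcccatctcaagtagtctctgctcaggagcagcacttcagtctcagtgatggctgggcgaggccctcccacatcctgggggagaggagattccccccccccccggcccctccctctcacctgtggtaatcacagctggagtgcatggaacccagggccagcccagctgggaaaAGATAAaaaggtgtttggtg
Krt8: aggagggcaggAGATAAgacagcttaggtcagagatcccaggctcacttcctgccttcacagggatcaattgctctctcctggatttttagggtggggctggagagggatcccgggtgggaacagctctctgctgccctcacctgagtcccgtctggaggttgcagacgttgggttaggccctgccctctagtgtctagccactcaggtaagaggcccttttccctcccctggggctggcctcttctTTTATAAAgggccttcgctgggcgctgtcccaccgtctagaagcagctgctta
TATAAA was found in the windows of Krt71, Krt73, Krt76 and Krt8, and in 19 of the 35 keratin promoters in the table, beside 13.6% of all 32851 promoters. AGATAA was found in all 5 windows, in Krt76 on the opposite strand and overlapping CTTTGA, and in 10 of the 35 keratin promoters, beside 11.2% of all promoters. CTTTGA was in the window of Krt76 only, in 8 of 35 keratin promoters and in 16.0% of all promoters. The nuclear receptor motif AAGGTCA was in none of the 5, in 1 of 35 keratin promoters and in 4.72% of all promoters. In Krt8 the matches to TATAAA on the 2 strands overlap. The letters were picked after the expression values were seen, and a match is no evidence of binding.

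Of 9 transcription factors known for hair keratin expression, 5 were tested, 2 were higher in Bnc1tr/tr ovaries and 0 lower, beside 2.88% and 4.19% of all genes (the same counts at an unadjusted p under 0.05, with DESeq2 and with limma-voom), with a median log2 fold change of 0.47 beside 0.018 over all genes. Gata3, which specifies the inner root sheath, had 0.52, 1.21 and 0.621 CPM in Bnc1+/+ and 3.27, 2.93 and 3.21 CPM in Bnc1tr/tr ovaries (log2 fold change 1.98 ± 0.34 SE, edgeR adjusted p = 0.016). Ovol1, a zinc finger factor of hair and epidermis, had 1.67, 1.06 and 0.966 CPM against 3.38, 2.31 and 4.26 CPM (log2 fold change 1.43 ± 0.33 SE, edgeR adjusted p = 0.0427). Both had every Bnc1tr/tr ovary above every Bnc1+/+ ovary. Hoxc13, which drives hair shaft keratins, had no read, and Foxn1 and Dlx3 had at most 4 reads in any ovary.

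Most other hair follicle genes were too low to be tested, and 0 of those tested were higher. The 53 keratin-associated protein genes, which make the matrix of the hair shaft, had at most 2 reads in any ovary. Of these genes 48 had no read, and 0 could be tested. Of 7 further genes of hair follicle structure 4 were tested, with 0 higher and 1 lower in edgeR, beside 2.88% and 4.19% of all genes. The counts were the same at an unadjusted p under 0.05, with DESeq2 and with limma-voom. The lower gene, which entered the test only through the Bnc1+/+ ovaries, where it is high, was Tgm3, a transglutaminase that cross-links proteins of the hair, at 1.36 ± 0.0584 CPM in Bnc1+/+ and 0.231 ± 0.0329 CPM in Bnc1tr/tr ovaries (SD, n = 3, log2 fold change -2.54, edgeR adjusted p = 0.00372). Tchh, the trichohyalin of the inner root sheath, had 1.99 ± 0.385 and 1.90 ± 0.0198 CPM (log2 fold change -0.06, 95% interval -0.61 to 0.48, edgeR adjusted p = 0.899). The other tested genes went the other way without passing, Padi1 at 0.55 (edgeR adjusted p = 0.765) and Padi3 at 1.07 (edgeR adjusted p = 0.258). The median log2 fold change of the 4 was 0.24. Summed over the 7 genes, the level was 4.08 to 6.79 CPM in Bnc1+/+ and 3.13 to 6.80 CPM in Bnc1tr/tr ovaries.

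Of the proteins that anchor keratin filaments 16 were tested, with 1 higher and 1 lower in edgeR (beside 2.88% and 4.19% of all genes) and in limma-voom, 2 higher and 2 lower in DESeq2, and 3 higher and 2 lower at an unadjusted p under 0.05 in edgeR. Their median log2 fold change was 0.01. Dsc2, the desmocollin of simple epithelia and heart, fell from 41.8 ± 7.52 to 5.41 ± 1.42 CPM (SD, n = 3, log2 fold change -2.95 ± 0.22 SE, edgeR adjusted p = 0.0011). Dsg1a, a desmoglein of the upper epidermis, had 4 reads in each Bnc1+/+ ovary and 27, 18 and 17 reads in Bnc1tr/tr ovaries (log2 fold change 2.44, edgeR adjusted p = 0.01), and it entered the test only through the latter. Dsp, the desmoplakin that ties keratins to desmosomes, had 66.2, 70.8 and 70.9 CPM against 150, 73.1 and 107 CPM and did not pass (edgeR adjusted p = 0.123). Jup went the other way, with 168, 165 and 235 CPM against 136, 149 and 126 CPM, and did not pass either (edgeR adjusted p = 0.105). Of 13 tested genes for other intermediate filaments, 0 were higher and 0 lower in edgeR and in limma-voom, 2 were higher and 1 lower in DESeq2, and 2 were higher and 2 lower at an unadjusted p under 0.05 in edgeR. Their median log2 fold change was 0.06. Vim, the vimentin of mesenchymal and granulosa cells, stood at 676 ± 46.8 and 662 ± 125 CPM.

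Tissues that could come along with an ovary were read from marker genes. Oviduct markers were uneven between ovaries of both genotypes, with sums of 57.3 to 176 CPM in Bnc1+/+ and 63.3 to 570 CPM in Bnc1tr/tr ovaries. In edgeR, 2 of 9 tested (Pax2 and Wnt7a) were higher and 0 lower, beside 2.88% and 4.19% of all genes. Wnt7a, and Foxj1 among those not called, entered the test only through the Bnc1tr/tr ovaries. At an unadjusted p under 0.05, 4 were higher and 0 lower, and DESeq2 called 3 and limma-voom 1 higher. The median log2 fold change of the 9 was 1.64, beside 0.018 over all genes tested. Pax8 had no overlap, with 0.423 to 1.19 CPM against 1.49 to 3.21 CPM, but did not pass (edgeR adjusted p = 0.0862). Sox17 had a log2 fold change of -0.23. Ovgp1, the oviduct glycoprotein, had 106, 11.7 and 15.1 CPM in Bnc1+/+ and 1.60, 18 and 423 CPM in Bnc1tr/tr ovaries. Bnc1tr/tr replicate 1, with the lowest Ovgp1, had 5.48 CPM of Krt71, 4.94 CPM of Krt73 and 15 CPM of Krt79, beside 5.36, 3.95 and 15.5 CPM in replicate 3, with the highest. Pax2 and Wnt7a were instead highest in replicate 1, with 4.8, 2.04 and 2.71 CPM of Pax2 and 1.81, 0.962 and 1.09 CPM of Wnt7a in the 3 Bnc1tr/tr ovaries. Without Bnc1+/+ replicate 1 and Bnc1tr/tr replicate 3, the ovaries with the most Ovgp1, the log2 fold change was 2.50 for Krt73 (edgeR adjusted p = 0.0291) and 1.68 for Krt79 (edgeR adjusted p = 0.0352), and Krt76, Krt80 and Krt83 were no longer called. Over all alternatives the adjusted p reached 0.0388 for Krt73 and 0.0352 for Krt79. The part of oviduct RNA in the keratin values was not tested.

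Ovarian surface epithelium markers summed to 206 to 250 CPM in Bnc1+/+ and 190 to 332 CPM in Bnc1tr/tr ovaries. Of 7 tested, 1 was higher and 0 were lower in edgeR, beside 2.88% and 4.19% of all genes, with a median log2 fold change of 0.09. The higher gene was Lrrn4 (log2 fold change 1.22, edgeR adjusted p = 0.0167). Upk3b, Aldh1a2 and Gpm6a had log2 fold changes of 0.44, 0.39 and 0.09, and Upk1b, Msln and Muc16 of -0.4, -0.54 and -0.05. Epidermis markers summed to 60.8 to 102 CPM and 47.8 to 103 CPM. In edgeR 1 of 7 tested was higher (Dsg1a, the desmoglein already given) and 0 were lower, beside 2.88% and 4.19% of all genes. The median log2 fold change of the 7 was 0.25. Trp63, Sfn and Perp had log2 fold changes of 0.34, 0.25 and 0.47, and Sbsn, Dmkn and Cdsn of -0.02, -0.57 and -0.59. Ivl and Flg had no read in any ovary, and Lor had 2 to 9 reads in each. Dsc1 had no read in Bnc1+/+ and 5, 2 and 4 reads in Bnc1tr/tr ovaries. Calml3 had 3, 3 and 12 reads against 0, 1 and 3. The part of the surface epithelium in the keratin values was not tested. All 13 ovary markers were detected in both genotypes, at sums of 5500 to 6970 CPM in Bnc1+/+ and 3990 to 5390 CPM in Bnc1tr/tr ovaries. In edgeR 3 of 13 tested were higher (Amh, Gdf9 and Bmp15) and 3 lower (Star, Lhcgr and Ptgfr), beside 2.88% and 4.19% of all genes. Bnc1 itself, whose mutant transcript is still counted, had 13.9, 13.4 and 13.1 CPM in Bnc1+/+ and 18.7, 13.7 and 11.5 CPM in Bnc1tr/tr ovaries, so its level does not check the labels.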

How the data were processed

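Total RNA of 6 ovaries was extracted with TRIzol and sequenced on an Ion Proton. What the authors deposited are raw counts, whole numbers of reads per gene and ovary without normalization, for 44788 gene symbols. The submitters' processing notes name the builds mm10 and Sscrofa10.2 (the latter is a pig genome). The aligner, the counter and the use of strand are not given in the sources used here. No column was left out.

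Genes were kept with edgeR's filterByExpr (minimum count 10, here 0.361 CPM), which left 19423. The genotypes were compared on TMM-normalized counts by the quasi-likelihood test of edgeR 4.0.16 in R 4.3.3 (glmQLFTest, two-sided). P-values were adjusted by Benjamini-Hochberg over all genes tested, with a threshold of 0.05. CPM are TMM-scaled. The fit was tested on simulated data. Depth was 25247770 to 34406296 counts per ovary. Counting intervals are exact, at 95%, and cover counting error only. The labels do not say whether libraries came from separate animals, so p-values measure the spread between these samples.

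The members and all gene lists were chosen with earlier results of these data known. Values per ovary are given for every simple keratin, every keratin under the threshold and the 2 keratins with the highest mean CPM of each other class. Other members named with values (such as Krt17, Krt33a and Krt72) were picked after their values were seen. Positions and exon lengths came from GENCODE M21 (GRCm38), and shared 50-base stretches were counted against all of its transcripts. The read length is not given in the sources used here, so these shares describe sequence and not lost reads. In RefSeq, Krt88 and Krt90 carry other symbols in the table and fall outside the rule.

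Alternatives were other normalizations (DESeq2 size factors, library size), no filter, at least 10 counts in every ovary, DESeq2 1.42.0, limma-voom (limma 3.58.1) and leaving out each ovary in turn. Leaving out both ovaries with the most oviduct markers, and summing classes without Krt35 or Krt71, were chosen after seeing the data.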

Additional observations from a re-analysis of the deposited data

How the results depend on the processing

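The count of keratins called higher in Bnc1tr/tr ovaries was 7 with DESeq2 size factors, library size and limma-voom, the same 7 genes each time, and 8 with DESeq2 (Krt84 added) and with no filter (Krt72 added). It was 3 when at least 10 counts were required in every ovary, since fewer keratins could then be tested. Without single ovaries it ranged from 4 to 6, with 4 without Bnc1+/+ replicate 4, Bnc1+/+ replicate 7 or Bnc1tr/tr replicate 3, and without both ovaries richest in oviduct markers it was 4. The cause was not tested, but each of these fits has fewer ovaries. The count called lower was 0 throughout. Krt73 and Krt79, which were above the minimum level in all 6 ovaries, were past the threshold under all 13 alternatives. Library size alone moved the median log2 fold change of all genes from 0.018 to 0.12.

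The log2 fold change of Krt10 ranged from -0.06 (without Bnc1+/+ replicate 1) to 0.24 (without Bnc1+/+ replicate 7) when single ovaries were left out, and it turned to -0.04 without both ovaries richest in oviduct markers. That of Krt20 ranged from -0.45 (without Bnc1tr/tr replicate 1) to 0.19 (without Bnc1tr/tr replicate 3), with 0.17 without Bnc1+/+ replicate 7, and it turned to 0.10 without both ovaries richest in oviduct markers. No paired analysis was possible because the genotypes share only 1 replicate number and the labels name no litter or batch. Depth limits the 33 untested keratins, which had at most 19 reads in any ovary.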
